A study of Solanum lycopersicum with 18 samples.

Results

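The 10 genes described here encode photoreceptors and the first steps of light signalling in tomato (Solanum lycopersicum) seeds. They are the phytochromes PHYA, PHYB1, PHYB2, PHYE and PHYF, the cryptochromes CRY1a and CRY2, the transcription factor HY5, and DET1 and DDB1, which belong to a complex that represses light responses. Their loci are Solyc10g044670 (PHYA), Solyc01g059870 (PHYB1), Solyc05g053410 (PHYB2), Solyc02g071260 (PHYE), Solyc07g045480 (PHYF), Solyc04g074180 (CRY1a), Solyc09g090100 (CRY2), Solyc08g061130 (HY5), Solyc01g056340 (DET1) and Solyc02g021650 (DDB1), where the digits after Solyc give the chromosome. They were picked by name and locus out of 33976 genes in the deposited tables, by a rule that uses no measured value but was set with earlier results of these data known. All 10 passed the filter on low counts, which kept 19914 genes.

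The RNA came from whole mature seeds of 3 genotypes, Stupicke, Criollo and Micro-Tom (a dwarf laboratory cultivar). Seeds were osmoprimed, that is, held in polyethylene glycol at -1 MPa for 48 h in the dark at 20 °C, either with 2 mM methyl jasmonate (MeJA, a form of the defence hormone jasmonate) or with water in its place (mock). They were then washed, and RNA was taken after 48 h of re-drying. This gave 6 groups of 3 libraries: MeJA- and mock-primed Stupicke, MeJA- and mock-primed Criollo, and MeJA- and mock-primed Micro-Tom, each biological replicate being a pool of 30 seeds. All 18 libraries thus came from seeds that were primed in darkness and re-dried, and no unprimed or light-treated seeds were among them.

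Phytochromes switch between a red-absorbing and a far-red-absorbing form, and in seeds they set whether light promotes or blocks germination. In tomato, PHYA is the far-red sensor that prevails in dark-grown tissue, PHYB1 and PHYB2 are the red-light sensors, and PHYE and PHYF are further members of the family. Cryptochromes sense blue light. HY5 is a bZIP factor that activates light-responsive genes, and in darkness it is marked for degradation by the COP1 ubiquitin ligase, while DET1 and DDB1 act in a ligase complex with the same repressive direction. In tomato, loss of DET1 function underlies the high pigment-2 fruits and reduced DDB1 function the high pigment-1 fruits.

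The libraries held 18807931 to 20560389 estimated counts, with a median of 20195370. Replicate 3 of mock-primed Micro-Tom stood apart: its log2 expression correlated with the other replicates of its group at r = 0.927 to 0.937, against 0.971 to 0.990 for the 16 other replicate pairs. The 6 Micro-Tom libraries also differed from the rest in the effective lengths reported by the quantifier, with a ratio of short to long genes of 1.27 to 1.34, against 0.956 to 1.055 in the 12 Stupicke and Criollo libraries. This difference cannot be told apart from genotype, and it bears on these genes because 8 of them are long, at 2.35 to 3.48 times the effective length of the median gene, whereas DET1 is at 1.36 and HY5 at 0.617 times. Results against Micro-Tom are therefore given with a length offset where that changes a call. As seed genes, 22 for late embryogenesis abundant, storage and oil body proteins made up 1.99 to 10.9% of all TPM (a transcript level scaled to transcript length and library total). Most of the 22 were annotated as late embryogenesis abundant. They came from the study's list of proteins found in exudates of MeJA-treated seeds. Their expression is therefore not an independent check of the tissue. From the study's MeJA table, 2 chlorophyll a-b binding protein genes summed to 1.42 to 8.36 TPM. The sum of the 22 seed genes varied by group, at 86870 to 109400 TPM in MeJA-primed and 79040 to 96830 in mock-primed Stupicke. It was 42750 to 67780 in MeJA-primed and 26000 to 30620 in mock-primed Criollo. In Micro-Tom it was 45100 to 59960 in MeJA-primed and 19900 to 24380 in mock-primed seeds. A further 10 genes of this kind, taken from the study's MeJA table, did not follow in Micro-Tom, with 5664 to 8237 TPM in MeJA-primed and 6827 to 8695 TPM in mock-primed seeds, while in Criollo they summed to 10860 to 12100 TPM and 7092 to 8465 TPM in the same groups. The part of these seed transcripts in the differences described here was not tested. In whole seeds, fewer cells of a type and less RNA per cell cannot be told apart.

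Per transcript length, PHYA was the most abundant of the 10 genes in every group, with means of 142 to 244 TPM, and its mean level was above that of 97.6% of all genes. DDB1 had group means of 41.0 to 51.5 TPM and CRY2 of 15.4 to 27.7 TPM. PHYE, PHYB1, PHYF, PHYB2, DET1 and CRY1a lay below CRY2 in every group, and CRY1a was the lowest or next to lowest of the 10 in each group. HY5 changed place more than any other: it ranked 2 in MeJA-primed Stupicke and in both Criollo groups, 3 in mock-primed Stupicke, 4 in MeJA-primed Micro-Tom and 6 in mock-primed Micro-Tom.

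**Figure D1:**
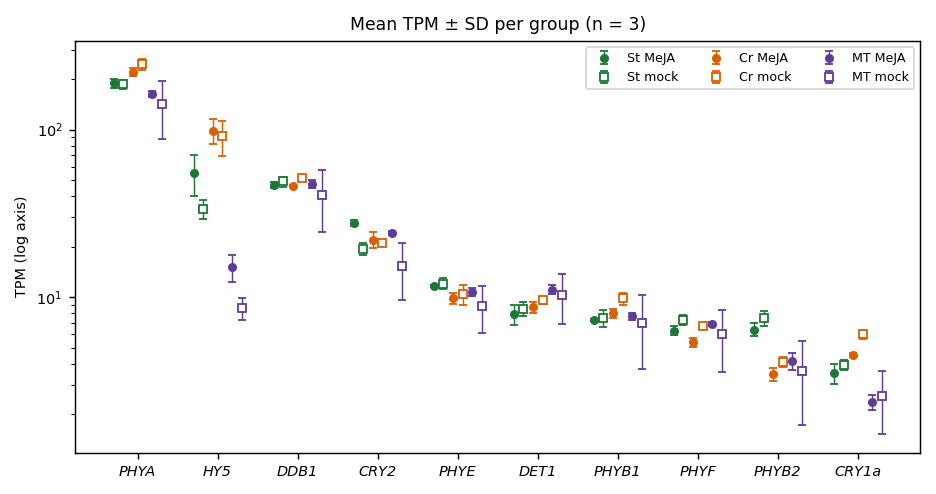
Mean TPM (log axis) of the 10 genes, ordered by their mean over all libraries, in MeJA-primed (filled circles) and mock-primed (open squares) seeds of Stupicke (St), Criollo (Cr) and Micro-Tom (MT), with SD bars (n = 3). PHYA stands highest in each group, at 142 to 244 TPM, and HY5 spreads most, with 98.6 TPM in MeJA-primed Criollo and 8.58 TPM in mock-primed Micro-Tom.

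PHYA alone accounted for most of the phytochrome transcript. Its share of the summed TPM of the 5 phytochromes was 85.6 ± 0.63% in MeJA-primed and 84.4 ± 0.42% in mock-primed Stupicke, 89.2 ± 0.25% in MeJA-primed and 88.7 ± 0.44% in mock-primed Criollo, and 84.7 ± 0.27% in MeJA-primed and 84.8 ± 0.54% in mock-primed Micro-Tom (SD, n = 3). Every Criollo library lay above every Stupicke and Micro-Tom library. The sum itself was 221 ± 12.9 TPM in MeJA-primed and 220 ± 14.0 TPM in mock-primed Stupicke, 248 ± 14.2 and 276 ± 18.2 TPM in the corresponding Criollo groups, and 192 ± 8.15 and 167 ± 64.8 TPM in those of Micro-Tom. The large SD of the last group came from replicate 3, at 92.4 TPM, while its other replicates had 204 and 205 TPM.

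Within a gene, levels were compared between libraries as CPM, counts scaled to the library total after TMM normalization, with edgeR's quasi-likelihood test, and a difference is called where the Benjamini-Hochberg adjusted p over all 19914 genes is under 0.05. The first question was which of these genes responded to MeJA. CRY2 rose with MeJA in Stupicke and in Micro-Tom, and CRY2 and HY5 were the members called in the mean MeJA effect over the 3 genotypes. This made 1 of 10 members called in Stupicke, where 1.56% of all genes were called, and 1 of 10 in Micro-Tom, where 15.6% were. In Criollo 0 of 10 were called and 4.4% of all genes were. There 0 members had an unadjusted p under 0.05 and DESeq2 called 0. Limma voom with sample weights called 2 members. Among all 19914 genes voom called 2290 higher and 2236 lower, so these 2 are near its own share. In the mean effect 2 of 10 were called, against 15.6% of all genes. The shares in Micro-Tom and in the mean effect were near those of all genes and are not a result about these genes as a set. The median log2 fold change of the 10 was -0.06 in Stupicke, 0.00 in Criollo and 0.17 in Micro-Tom, beside -0.01, 0.01 and -0.01 over all genes tested.

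**Figure D2:**
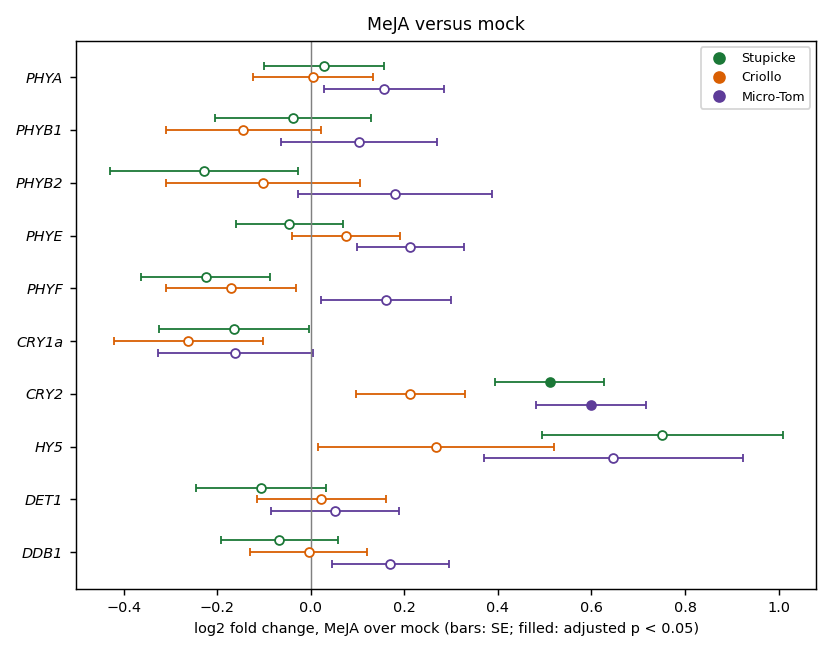
Log2 fold change of MeJA-primed over mock-primed seeds for the 10 genes in Stupicke, Criollo and Micro-Tom, with SE bars and filled points for an adjusted p under 0.05. CRY2 is the only gene with filled points (0.51 in Stupicke and 0.60 in Micro-Tom), and HY5 lies to the right of 0 in each genotype with wide bars.

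The 3 genotypes were then compared within each priming treatment. In mock-primed seeds, 4 of 10 members were called between Stupicke and Criollo (3 higher and 1 lower in Stupicke), beside 41.7% of all genes. Between Stupicke and Micro-Tom 8 of 10 were called, all higher in Stupicke, where 60.5% of all genes were called and 28.7% were called higher. Between Criollo and Micro-Tom 6 of 10 were called (5 higher and 1 lower in Criollo), beside 50.0% of all genes. In MeJA-primed seeds the members called were 3 of 10 for Stupicke against Criollo (22.4% of all genes), 7 of 10 for Stupicke against Micro-Tom (44.2%) and 4 of 10 for Criollo against Micro-Tom (39.1%). The counts between Stupicke and Criollo and between Criollo and Micro-Tom were near the shares of all genes. Those between Stupicke and Micro-Tom were above them but fell to 4 (mock) and 1 (MeJA) when limma was run on log2(TPM + 1), which changes the tool, the scaling and the treatment of length together. With the length offset in the edgeR fit they were 8 and 5. Of 19914 genes, the length-offset fit called 5622 higher and 6169 lower (mock), and 4310 and 4363 (MeJA). Its 5 of 10 is thus near its own share. The log2(TPM + 1) fit called 4788 higher and 5919 lower (mock), and 2771 and 5110 (MeJA).

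**Figure D3:**
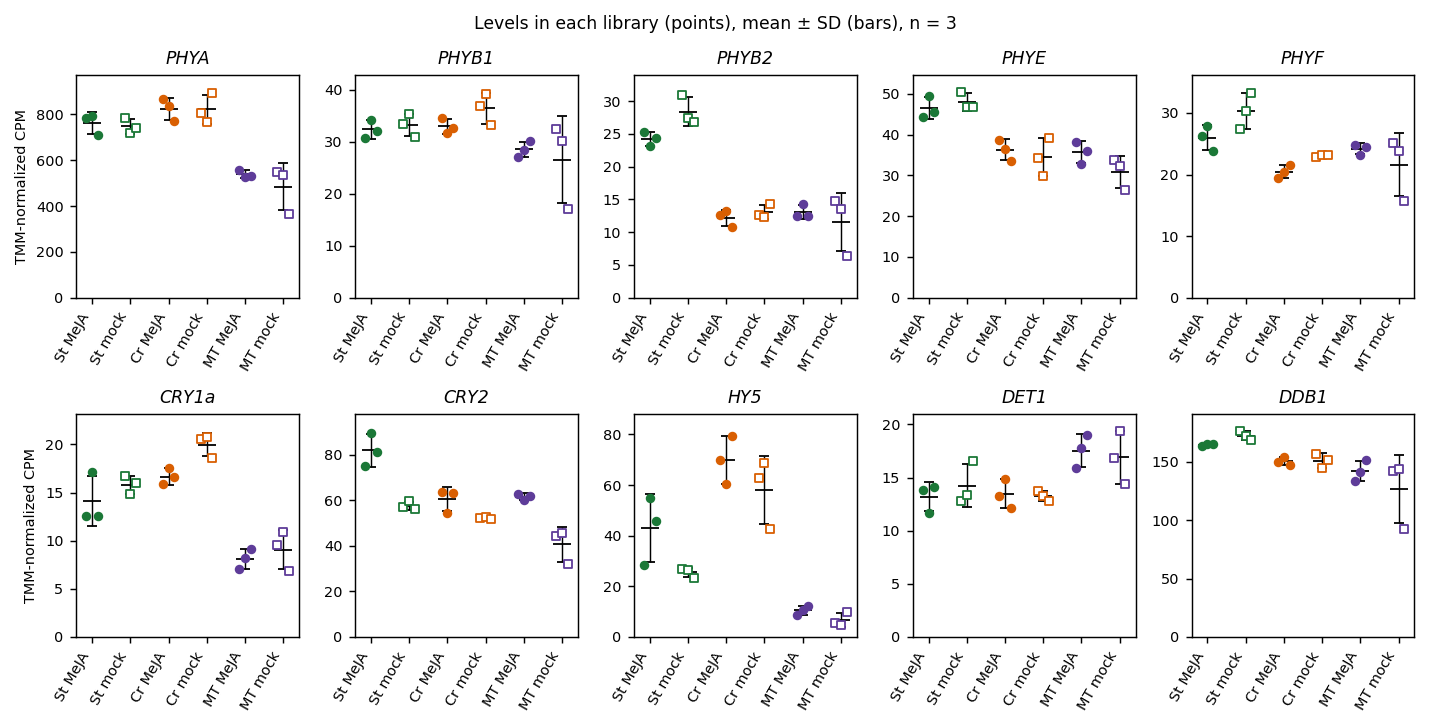
TMM-normalized CPM of each gene in each of the 18 libraries, in MeJA-primed (filled circles) and mock-primed (open squares) seeds of Stupicke (St), Criollo (Cr) and Micro-Tom (MT), with the mean and SD of each group in black (n = 3). HY5 runs between 4.88 and 79.3 CPM, the PHYB2 points of Stupicke (23.2 to 30.9 CPM) stand above all others, and 1 mock-primed Micro-Tom library is low for most genes.

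Among the phytochromes, PHYA had 786, 794 and 710 CPM in MeJA-primed and 785, 721 and 740 CPM in mock-primed Stupicke. It had 866, 837 and 773 CPM in MeJA-primed and 805, 769 and 893 CPM in mock-primed Criollo. In Micro-Tom it had 558, 527 and 533 CPM in MeJA-primed and 549, 536 and 367 CPM in mock-primed seeds. In CPM the 4 Stupicke and Criollo groups overlapped each other in the order of their means and all lay above both Micro-Tom groups. In TPM mock-primed Stupicke, at 172.9 to 197.0, overlapped mock-primed Micro-Tom, at 78.9 to 174.2. In mock-primed seeds PHYA was higher in Stupicke than in Micro-Tom by 0.63 ± 0.13 on the log2 scale (SE, adjusted p = 0.00060) and higher in Criollo than in Micro-Tom by 0.76 ± 0.13 (adjusted p = 0.00018). With the length offset the differences were 0.48 (adjusted p = 0.0041) and 0.63 (adjusted p = 0.00090), and on the log2(TPM + 1) scale the first was 0.47 and was no longer called (adjusted p = 0.067). Leaving out 1 library brought them as low as 0.46 and 0.60, still called. In MeJA-primed seeds PHYA was higher than in Micro-Tom by 0.50 in Stupicke and 0.61 in Criollo (adjusted p = 0.0051 and 0.0015). On the log2(TPM + 1) scale these were 0.21 and 0.44 and not called (adjusted p = 0.45 and 0.12). MeJA left PHYA close to its mock level, with log2 fold changes of 0.03 ± 0.13 in Stupicke, 0.01 ± 0.13 in Criollo and 0.16 ± 0.13 in Micro-Tom, none of them called.

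PHYB2, the partner of PHYB1 in red-light sensing, was the phytochrome that set Stupicke apart. It had 25.2, 23.2 and 24.3 CPM in MeJA-primed and 30.9, 27.5 and 26.8 CPM in mock-primed Stupicke. It had 12.6, 13.2 and 10.7 CPM in MeJA-primed and 12.6, 12.4 and 14.2 CPM in mock-primed Criollo. The Micro-Tom libraries had 12.5, 14.3 and 12.5 CPM after MeJA and 14.7, 13.5 and 6.43 CPM after mock priming. Every Stupicke library was above every library of the other genotypes, and the Criollo and Micro-Tom groups overlapped. PHYB2 was higher in Stupicke than in Criollo by 1.12 ± 0.21 in mock-primed (adjusted p = 0.00048) and by 1.00 ± 0.21 in MeJA-primed seeds (adjusted p = 0.0027) on the log2 scale. Against Micro-Tom the differences were 1.30 ± 0.21 (adjusted p = 7.0e-05) and 0.89 ± 0.21 (adjusted p = 0.0025). On the log2(TPM + 1) scale the MeJA-primed difference from Micro-Tom was 0.52 and was not called (adjusted p = 0.0998), and the one from Criollo was lost on the same scale without a filter (0.73, adjusted p = 0.064). In Stupicke the MeJA-primed libraries were all below the mock-primed ones, but the fold change of -0.23 ± 0.20 was not called (unadjusted p = 0.27).

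PHYB1 differed little. It had 30.7, 34.3 and 32.1 CPM in MeJA-primed and 33.4, 35.3 and 31.0 CPM in mock-primed Stupicke, 34.5, 31.7 and 32.6 CPM in MeJA-primed and 36.9, 39.1 and 33.3 CPM in mock-primed Criollo, and 27.1, 28.4 and 30.1 CPM in MeJA-primed and 32.5, 30.2 and 17.0 CPM in mock-primed Micro-Tom. The 1 call among its comparisons, Criollo over Micro-Tom in mock-primed seeds (0.45 ± 0.17 on the log2 scale, adjusted p = 0.033), was lost with the length offset (0.34, adjusted p = 0.099) and without replicate 3 of mock-primed Micro-Tom (0.22, adjusted p = 0.054) or without replicate 1 (0.45, adjusted p = 0.074) or 2 (0.40, adjusted p = 0.099) of mock-primed Criollo. The ratio of PHYB2 to PHYB1 in TPM, taken within each library, was 0.880 ± 0.085 in MeJA-primed and 1.01 ± 0.087 in mock-primed Stupicke. It was 0.434 ± 0.052 and 0.422 ± 0.067 in MeJA- and mock-primed Criollo, and 0.541 ± 0.052 and 0.501 ± 0.049 in MeJA- and mock-primed Micro-Tom. The lowest Stupicke library, at 0.793, was above the highest of the other 12, at 0.595, so that the transcripts of both red-light phytochromes were near parity in Stupicke and PHYB1 prevailed elsewhere. Being a quotient inside a library, this ratio does not depend on the scaling between libraries. It rests on the same PHYB2 libraries as the comparisons above and was not tested.

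PHYE followed PHYB2 on a smaller scale. Its means were 46.5 ± 2.77 CPM in MeJA-primed and 48.0 ± 2.14 CPM in mock-primed Stupicke, and between 30.8 and 36.3 CPM in the other 4 groups, which overlapped each other. It was higher in mock-primed Stupicke than in Criollo by 0.48 ± 0.11 (adjusted p = 0.0035) and than in Micro-Tom by 0.64 ± 0.12 (adjusted p = 0.00020) on the log2 scale. In MeJA-primed seeds PHYE differed by 0.36 ± 0.11 from Criollo (adjusted p = 0.035) and by 0.38 ± 0.11 from Micro-Tom (adjusted p = 0.013), and the call against Micro-Tom was lost with the length offset (0.27, adjusted p = 0.074) and without replicate 2 of MeJA-primed Stupicke (0.33, adjusted p = 0.058) or of MeJA-primed Micro-Tom (0.33, adjusted p = 0.065). Leaving out any of 5 of the 6 MeJA-primed Stupicke and Criollo libraries ended the PHYE call between these genotypes, with adjusted p from 0.053 to 0.14. PHYF was called higher in mock-primed Stupicke, at 27.4, 30.4 and 33.3 CPM, than in Criollo, at 22.8, 23.1 and 23.2 CPM (0.40 ± 0.14 on the log2 scale, adjusted p = 0.030). These libraries did not overlap, yet leaving out any of 5 of the 6 ended the call, with adjusted p from 0.064 to 0.12. PHYF was also higher in mock-primed Stupicke than in mock-primed Micro-Tom by 0.49 ± 0.14 (adjusted p = 0.0064), and by 0.31 without replicate 3 of the Micro-Tom group (adjusted p = 0.0089). This PHYF call was lost when the length offset was added to that fit (0.21, adjusted p = 0.066), with only the libraries compared (0.48, adjusted p = 0.098) and on the log2(TPM + 1) scale (0.32, adjusted p = 0.19). On the log2(TPM + 1) scale neither the PHYE nor the PHYF difference between mock-primed Stupicke and Criollo was called (0.20 with adjusted p = 0.40, and 0.11 with adjusted p = 0.71). Both PHYE calls of MeJA-primed Stupicke were lost on that scale, at 0.23 over Criollo and 0.11 over Micro-Tom (adjusted p = 0.41 and 0.66). The PHYE call over MeJA-primed Criollo was also lost in edgeR without a filter on low counts (adjusted p = 0.0595).

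**Figure D4:**
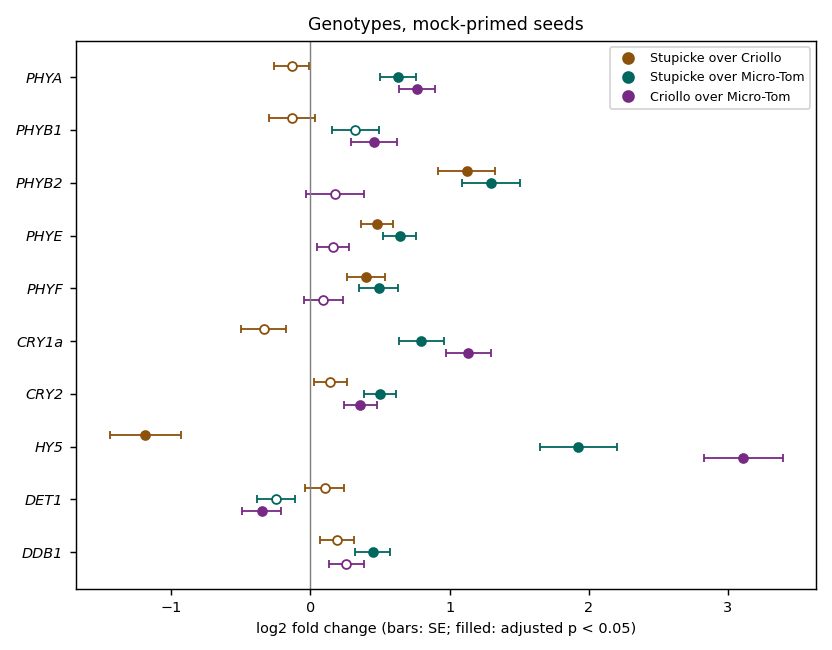
Log2 fold change between genotypes in mock-primed seeds, with the first-named genotype on top of the ratio, SE bars and filled points for an adjusted p under 0.05. HY5 has the longest distances from 0 (3.11 for Criollo over Micro-Tom and -1.19 for Stupicke over Criollo), and PHYB2 is filled in both contrasts of Stupicke, at 1.12 and 1.30.

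Of the cryptochromes, CRY2 was called with MeJA and CRY1a was not. CRY2, which in Arabidopsis senses weak blue light, had 75.1, 89.6 and 81.4 CPM in MeJA-primed Stupicke, against 57.1, 59.6 and 56.1 CPM in mock-primed Stupicke. It had 63.9, 54.5 and 63.1 CPM in MeJA-primed Criollo, against 52.3, 52.5 and 51.8 CPM in mock-primed Criollo. In Micro-Tom it had 63.0, 60.3 and 61.8 CPM after MeJA, against 44.3, 45.9 and 32.0 CPM after mock priming. In each genotype every MeJA-primed library was above every mock-primed one in CPM. In TPM the Criollo groups overlapped, at 19.27 to 23.57 after MeJA and 20.95 to 21.28 after mock priming. The log2 fold change was 0.51 ± 0.12 in Stupicke (adjusted p = 0.035), 0.21 ± 0.12 in Criollo (adjusted p = 0.37) and 0.60 ± 0.12 in Micro-Tom (adjusted p = 0.0037). Over the 3 genotypes it averaged 0.44 ± 0.07 (adjusted p = 0.00031), positive in 3 of 3. In Criollo it lay between 0.05 and 0.28 over 30 alternatives, of which 1 called it.

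The CRY2 call in Stupicke was close to the threshold, and it held in 7 of the 18 fits that left out 1 library, with adjusted p between 0.00079 and 0.19 and fold changes between 0.44 and 0.57. It was lost without MeJA-primed Stupicke replicate 2 or 3, any mock-primed Stupicke or Criollo library, MeJA-primed Criollo replicate 1, or MeJA-primed Micro-Tom replicate 2 or 3. On the log2(TPM + 1) scale it was 0.50 and was not called (adjusted p = 0.56). In Micro-Tom, CRY2 without replicate 3 of the mock group was 0.45 (adjusted p = 0.0029), and the call held in all 18 such fits, but it was lost, at a fold change of 0.61, when only the 6 Micro-Tom libraries were fitted (adjusted p = 0.10).

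CRY1a, whose Arabidopsis relative acts in stronger blue light, had lower means after MeJA in each genotype. They were 14.1 ± 2.64 CPM in MeJA-primed and 15.8 ± 0.95 CPM in mock-primed Stupicke, 16.7 ± 0.85 and 20.0 ± 1.18 CPM in the same Criollo groups, and 8.14 ± 1.05 and 9.08 ± 2.07 CPM in those of Micro-Tom (SD, n = 3). Only in Criollo did the groups not overlap. The mean MeJA effect on CRY1a was -0.20 ± 0.09 on the log2 scale and was not called (adjusted p = 0.18). It was -0.25, and called, once replicate 3 of the mock Micro-Tom group was left out (adjusted p = 0.026).

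The ratio of CRY2 to CRY1a in TPM, again within each library, was higher after MeJA in all 3 genotypes, with no overlap between the groups of any of them. It was 7.96 ± 0.91 in MeJA-primed against 4.91 ± 0.43 in mock-primed Stupicke, 4.92 ± 0.63 against 3.53 ± 0.21 in Criollo and 10.3 ± 1.35 against 6.05 ± 0.34 in Micro-Tom. Replicate 3 of mock-primed Micro-Tom did not stand apart in this ratio, at 6.27 beside 6.23 and 5.65. The ratio was put together after the values of both genes were seen and was not tested.

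**Figure D5:**
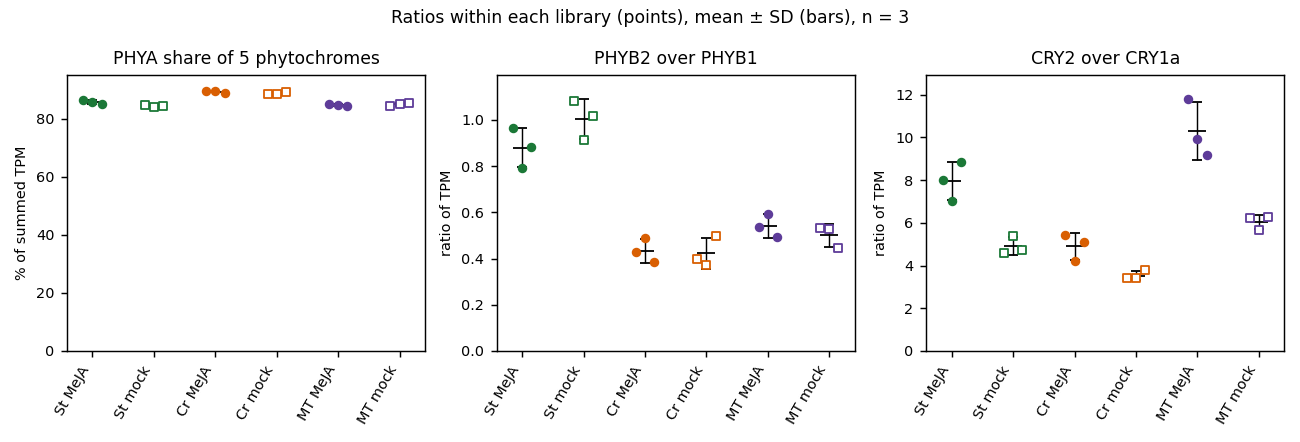
The 3 quotients taken within each library: the share of PHYA in the summed TPM of 5 phytochromes (%), PHYB2 over PHYB1 and CRY2 over CRY1a (ratios of TPM), with group mean and SD in black (n = 3). PHYB2 over PHYB1 is 0.793 or more in Stupicke and 0.595 or less elsewhere, and CRY2 over CRY1a is higher in MeJA-primed than in mock-primed seeds of each genotype.

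Against Micro-Tom, CRY1a differed more than CRY2. It was higher than in Micro-Tom by 0.80 ± 0.16 in mock-primed Stupicke (adjusted p = 0.00061) and by 1.13 ± 0.16 in mock-primed Criollo (adjusted p = 4.7e-05) on the log2 scale. In MeJA-primed seeds CRY1a was higher than in Micro-Tom by 0.79 ± 0.16 in Stupicke and 1.03 ± 0.16 in Criollo (adjusted p = 0.0011 and 0.00015). These calls were kept with the length offset, at 0.72, 1.07, 0.73 and 0.96, but on the log2(TPM + 1) scale MeJA-primed Stupicke against Micro-Tom was 0.42 and was not (adjusted p = 0.073). Between Stupicke and Criollo CRY1a was not called, at -0.34 ± 0.16 in mock-primed seeds (adjusted p = 0.10), but it was called when replicate 3 of the mock Micro-Tom group was left out (adjusted p = 0.030). CRY2 was higher in MeJA-primed Stupicke than in MeJA-primed Criollo by 0.44 ± 0.12 (adjusted p = 0.013) and than in MeJA-primed Micro-Tom by 0.41 ± 0.12 (adjusted p = 0.0093). The first of these was lost without MeJA-primed Stupicke replicate 2 (0.37, adjusted p = 0.068) or MeJA-primed Criollo replicate 2 (0.37, adjusted p = 0.056). It was also lost in fits on all 18 libraries: of 30 alternatives 25 called it and 5 did not. Over these its fold change went down to 0.32 and its adjusted p up to 0.34. The other was lost on the log2(TPM + 1) scale (0.19, adjusted p = 0.47). In mock-primed seeds CRY2 exceeded Micro-Tom by 0.50 ± 0.12 in Stupicke and 0.36 ± 0.12 in Criollo (adjusted p = 0.0018 and 0.019). On the log2(TPM + 1) scale the CRY2 difference in Stupicke was 0.39 and not called (adjusted p = 0.11). The Criollo difference was 0.21 without replicate 3 of the mock Micro-Tom group (adjusted p = 0.046), and 0.15 and not called when the length offset was added to that (adjusted p = 0.15).

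HY5 had the widest range of the 10 genes, with a 10.4-fold span between its highest and lowest group mean. In mock-primed seeds it had 26.7, 26.4 and 23.4 CPM in Stupicke, 62.9, 68.6 and 42.8 CPM in Criollo and 5.40, 4.88 and 9.98 CPM in Micro-Tom. The 3 genotypes did not overlap. HY5 was lower in Stupicke than in Criollo by a log2 fold change of -1.19 ± 0.26 (adjusted p = 0.0018), higher in Stupicke than in Micro-Tom by 1.93 ± 0.28 (adjusted p = 2.5e-05) and higher in Criollo than in Micro-Tom by 3.11 ± 0.28 (adjusted p = 6.4e-07). All 3 calls were kept in every one of the 30 alternatives run on them, with ranges of -1.42 to -1.05, 1.74 to 2.31 and 2.92 to 3.50.

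After MeJA, HY5 had 28.5, 54.9 and 45.6 CPM in Stupicke, 70.0, 60.4 and 79.3 CPM in Criollo and 8.80, 10.5 and 12.2 CPM in Micro-Tom. The order of the genotypes was the same, again with no overlap. Stupicke and Criollo were higher than Micro-Tom by 2.03 ± 0.27 and 2.73 ± 0.27 on the log2 scale (adjusted p = 2.5e-05 and 2.1e-06). Stupicke against Criollo, at -0.70 ± 0.25, was just short of the threshold (adjusted p = 0.058). Of 30 alternatives 10 called this difference and 20 did not, and 3 of the 10 left out 1 library. Those 3 lacked replicate 3 (adjusted p = 0.015) or 2 (adjusted p = 0.048) of mock-primed Micro-Tom or replicate 2 of MeJA-primed Stupicke (-0.92, adjusted p = 0.038). MeJA-primed over mock-primed, the log2 fold change of HY5 was 0.75 ± 0.26 in Stupicke (adjusted p = 0.28), 0.27 ± 0.25 in Criollo (adjusted p = 0.65) and 0.65 ± 0.28 in Micro-Tom (adjusted p = 0.12), none of them called. Replicate 1 of MeJA-primed Stupicke, at 28.5 CPM, was barely above the mock-primed libraries. In Micro-Tom, replicate 3 of the mock group fell among the MeJA-primed libraries, and without it HY5 was 1.03 higher and was called (adjusted p = 0.024). The mean effect over the 3 genotypes was 0.56 ± 0.15 (adjusted p = 0.021), positive in 3 of 3, and it was called in all 29 alternatives run on it, with adjusted p from 0.0015 to 0.049.

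DET1 and DDB1, both of the repressor complex, varied least along with PHYB1, with 1.33-fold and 1.37-fold spans between group means. DET1 had 13.9, 11.7 and 14.1 CPM in MeJA-primed and 12.8, 13.3 and 16.6 CPM in mock-primed Stupicke, and 13.3, 14.9 and 12.2 CPM in MeJA-primed and 13.7, 13.3 and 12.8 CPM in mock-primed Criollo. In Micro-Tom its means were 17.5 ± 1.58 CPM after MeJA and 16.9 ± 2.51 CPM after mock priming (SD, n = 3). Neighbouring groups overlapped throughout the order of the means. DET1 was the member whose calls against Micro-Tom ran downwards, at -0.35 ± 0.14 for mock-primed Criollo (adjusted p = 0.044), -0.41 ± 0.14 for MeJA-primed Stupicke (adjusted p = 0.025) and -0.38 ± 0.14 for MeJA-primed Criollo (adjusted p = 0.038). All 3 were lost with the length offset, at -0.28, -0.34 and -0.31 (adjusted p = 0.092, 0.052 and 0.078), and regained when that fit also left out replicate 3 of mock-primed Micro-Tom (-0.39, -0.34 and -0.31, adjusted p = 0.020, 0.020 and 0.033). Without the offset, leaving out 1 library ended them in 10, 3 and 5 of 18 fits, with adjusted p up to 0.18, 0.11 and 0.14. On the log2(TPM + 1) scale mock-primed Criollo against Micro-Tom was -0.05 (adjusted p = 0.83). Stupicke against Micro-Tom in mock-primed seeds (-0.25 ± 0.14, adjusted p = 0.13) was called when the outlying library was left out (-0.35, adjusted p = 0.029).

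DDB1, the adaptor subunit, had group means of 164 ± 0.80 CPM in MeJA-primed and 172 ± 3.62 CPM in mock-primed Stupicke, 150 ± 3.31 and 151 ± 6.33 CPM in the same Criollo groups, and 142 ± 8.82 and 126 ± 29.1 CPM in those of Micro-Tom (SD, n = 3). Its 1 call was Stupicke over Micro-Tom in mock-primed seeds, at 0.45 ± 0.13 on the log2 scale (adjusted p = 0.0060). It was 0.27 when replicate 3 of the mock Micro-Tom group was left out (adjusted p = 0.0021), and on the log2(TPM + 1) scale 0.34 and not called (adjusted p = 0.18). Leaving out that replicate also brought calls of DDB1 for Stupicke over Criollo in mock-primed seeds (0.19, adjusted p = 0.010) and Stupicke over Micro-Tom in MeJA-primed seeds (0.21, adjusted p = 0.0054), and leaving out replicate 1 or 2 of that group a call for Criollo over Micro-Tom (0.35 and 0.36, adjusted p = 0.044 and 0.033). The log2 fold changes of DET1 and DDB1 with MeJA lay between -0.11 and 0.17, with no call. The ratio of HY5 to DET1 in TPM was 7.19 ± 2.83 in MeJA-primed and 3.98 ± 0.81 in mock-primed Stupicke, 11.4 ± 2.70 and 9.50 ± 1.96 in Criollo, and 1.35 ± 0.16 and 0.942 ± 0.51 in Micro-Tom.

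Whether the MeJA response itself differed between genotypes was tested as an interaction. Of the 10 members 0 were called between Stupicke and Criollo, where 0.0301% of all genes were called, 0 between Stupicke and Micro-Tom (0.447%) and 0 between Criollo and Micro-Tom (0.0954%). The smallest adjusted p among the members in these contrasts was 0.71, 0.36 and 0.54. At an unadjusted p under 0.05 there were 0, 0 and 1 members, the last being CRY2, whose response was 0.39 ± 0.17 smaller on the log2 scale in Criollo than in Micro-Tom (a difference of -0.39, unadjusted p = 0.033). DESeq2 and limma voom called 0 members in each. The CRY2 call in Stupicke and Micro-Tom and its absence in Criollo were therefore not shown to differ.

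As a description over the 18 libraries, which share genotype and treatment structure, log2 CPM of PHYB2 ran with that of PHYE (r = 0.92) and PHYF (r = 0.85), and that of HY5 with CRY1a (r = 0.83) and PHYA (r = 0.82). DET1 ran against HY5 (r = -0.78). Among all genes tested, the 3 with the pattern most like that of HY5 were Solyc06g068970 (r = 0.98), Solyc06g073180 (r = 0.98) and Solyc02g084400 (r = 0.97). Solyc06g073180 averaged 127 CPM in MeJA-primed Criollo and 27.1 CPM in mock-primed Micro-Tom.

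Further light-signalling genes were taken from the annotations in the study's own list of MeJA-responsive genes, which holds 12 of them. Since that list was made from these samples, their MeJA counts are not independent evidence of a response. In the mean MeJA effect 6 of the 12 were higher and 1 lower, with 2 higher and 0 lower in Stupicke, 3 and 1 in Criollo and 5 and 1 in Micro-Tom. Over all genes 15.6% were called in the mean effect, 1.56% in Stupicke, 4.4% in Criollo and 15.6% in Micro-Tom. The blue-light receptor phototropin 2 (Solyc01g097770) had the largest of these changes, with 10.6 ± 1.96 CPM in MeJA-primed against 3.96 ± 0.71 CPM in mock-primed Stupicke, 22.3 ± 5.34 against 5.42 ± 0.98 CPM in Criollo and 10.9 ± 1.46 against 2.38 ± 0.76 CPM in Micro-Tom (SD, n = 3). Its log2 fold change was 1.42 ± 0.24, 2.04 ± 0.23 and 2.19 ± 0.25 in these genotypes (adjusted p = 0.0036, 5.1e-05 and 3.3e-05), larger than that of any of the 10 members. B-box zinc finger protein 22 (Solyc12g089240), whose Arabidopsis relative works with HY5, rose by 0.89 ± 0.13 on average (adjusted p = 0.00014). CONSTANS-LIKE 15 (Solyc09g074560) rose by 0.58 ± 0.11 (adjusted p = 0.0019) and Adagio-like protein 1 (Solyc01g005300), of the family of blue-light F-box proteins, by 0.42 ± 0.11 (adjusted p = 0.013).

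The COP1 homolog (Solyc12g005950) and SPA1-RELATED 3 (Solyc07g063120), which in Arabidopsis belong to the ligase that removes HY5, were both higher with MeJA by 0.32 on average (SE 0.09 and 0.07, adjusted p = 0.021 and 0.0048). In single genotypes both were called in Micro-Tom only, and COP1 was at 0.04 ± 0.15 in Stupicke. The outlying replicate 3 of the mock Micro-Tom group was low for both, with 79.8 CPM of COP1, where the other replicates had 133 and 128 CPM. A chlorophyll a-b binding protein gene (Solyc07g047850), a target of light signalling, was lower by -0.89 ± 0.21 (adjusted p = 0.010) at group means of 0.99 to 4.03 CPM. In mock-primed Micro-Tom the outlying replicate 3 had 7.04 CPM of it, beside 2.77 and 2.27 CPM. After MeJA the Micro-Tom libraries had 2.66, 2.73 and 2.57 CPM, so the lower mean there rested on that replicate. The other chlorophyll a-b binding protein gene of the list (Solyc02g070940) was not called in the mean effect. Between mock-primed genotypes, calls among these 12 genes numbered 8 upward and 1 downward for Stupicke over Micro-Tom, 8 and 3 for Criollo over Micro-Tom, and 3 and 2 for Stupicke over Criollo. Over all genes 60.5%, 50.0% and 41.7% were called in these comparisons, so that the last count is near the share of all genes. The 12 genes were listed for a MeJA response measured against the same mock-primed libraries. A low or high mock level in Micro-Tom thus bears on both the listing and these counts. They are therefore not independent evidence of a genotype difference. Adagio-like protein 1 was 1.95 ± 0.19 higher in Stupicke than in Micro-Tom on the log2 scale. Set over Micro-Tom in Stupicke and in Criollo, CONSTANS-LIKE 9 (Solyc07g045180) was 1.68 ± 0.15 and 1.51 ± 0.15 higher, and SPA1-RELATED 3 1.33 ± 0.12 and 1.23 ± 0.12 higher. The UV-B receptor UVR8 (Solyc05g018640) was 1.80 ± 0.30 and 0.94 ± 0.30 higher. Only FAR-RED-ELONGATED HYPOCOTYL 1-LIKE (Solyc10g086560), whose Arabidopsis relative carries PHYA into the nucleus, was called lower than in Micro-Tom in both. The differences were -0.91 ± 0.19 in Stupicke and -1.11 ± 0.19 in Criollo, whereas PHYA was called higher in both. Replicate 3 of mock-primed Micro-Tom widened these contrasts, with 28.0 CPM of this gene beside 15.6 and 15.6 CPM in the other replicates. That replicate was low for PHYA, for UVR8 (1.77 CPM beside 5.12 and 6.57) and for Adagio-like protein 1 (44.0 CPM beside 87.3 and 86.3).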

How the data were processed

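Expression was measured by poly(A) RNA-seq of 18 libraries (BGISEQ-500, 100-base paired-end reads). The authors quantified reads with Salmon (version 1.2) on the ITAG 4.0 transcripts of assembly SL 4.0, and deposited an estimated count and a TPM value per gene and library. Counts were rounded, genes with low counts were removed with edgeR's filterByExpr, and 19914 genes were normalized by TMM and tested with edgeR's quasi-likelihood test (edgeR 4.0.16, R 4.3.3) on all 18 libraries with a mean per group and Benjamini-Hochberg adjustment. Alternatives were DESeq2 1.42.0, limma 3.58.1 (voom with sample weights, and log2(TPM + 1)), other filters and scalings, a length offset and leaving out each library. Scripts were tested on simulated data for MeJA against mock in Stupicke. There edgeR called 7 of 100 genes changed by 0.5 on the log2 scale and 90 of 100 changed by 1.5, with 3 false calls. Changes of 0.5 were thus mostly missed, and a gene not called is not shown to be unchanged. TMM-scaled values compare a gene between libraries, and TPM compares genes.

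The 10 members and the lists were chosen with earlier results of these data known. All 10 members are named. Other light-signalling genes came from annotations in the study's tables, and up to 2 per list by smallest adjusted p in the mean MeJA effect, and up to 2 by largest genotype change in the same direction in both comparisons against Micro-Tom, or in both of Stupicke, were named. For the member of widest range, the 3 genes of highest correlation were named. Phytochrome-interacting factors, CUL4 and COP9 signalosome genes were not analysed here. Replicates are separate seed pools.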

Additional observations from a re-analysis of the deposited data

How the results depend on the processing

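Over 3890 member values recomputed under 12 alternatives, 1 of which left out each of the 18 libraries in turn, and 1 further alternative chosen after seeing the data (length offset without replicate 3 of mock-primed Micro-Tom), 3711 stayed on the same side of the threshold, 129 lost a call, 50 gained one and 0 reversed, while 165 changed sign without a call in either fit. The counts of members called moved as follows, and the cause was not tested. Calls over all 19914 genes moved as well. For the mean MeJA effect voom called 3326 genes higher and 3342 lower, against 1762 and 1337 in the main fit. For mock-primed Stupicke against Criollo voom called 5858 higher and 6343 lower, against 3993 and 4309. The shifts below are therefore not a result about these genes. For MeJA in Stupicke (1), the count was 0 without a filter, with the replicate block and on the TPM scales, and 2 with voom. For MeJA in Criollo (0) it was 2 with voom. For MeJA in Micro-Tom (1) it was 2 with voom, on log2(TPM + 1) and log2(TPM + 0.1) and with the added alternative, and 0 with only the 6 libraries. The mean MeJA effect (2) gave 4 with voom. Stupicke against Criollo gave, in mock-primed seeds (4), 7 with voom and 2 on log2(TPM + 0.1), and in MeJA-primed seeds (3), 5 with voom, the compared libraries only or the added alternative, and 1 on log2(TPM + 0.1) or log2(TPM + 1) without a filter. Stupicke against Micro-Tom gave, in mock-primed seeds (8), 5 with the compared libraries only, 4 on the TPM scales and 3 there without a filter, and in MeJA-primed seeds (7), 1 on each TPM scale. Criollo against Micro-Tom gave, in mock-primed seeds (6), 3 with the compared libraries only and on log2(TPM + 1) without a filter, and in MeJA-primed seeds (4), 2 on each TPM scale.

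Leaving out 1 library gave 0 to 1 for MeJA in Stupicke, 0 to 0 in Criollo, 1 to 2 in Micro-Tom and 2 to 3 for the mean. In mock-primed seeds it gave 3 to 6 for Stupicke against Criollo, 8 to 9 for Stupicke and 4 to 6 for Criollo against Micro-Tom, in MeJA-primed seeds 1 to 5, 5 to 8 and 3 to 6, and 0 for each response difference.

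The replicate numbers did not pair the samples: deviations of 9 same-numbered pairs correlated at -0.22 to 0.30, with 2 above 0.1. With the replicate block the count for MeJA in Stupicke was 0 (CRY2 adjusted p = 0.059), and the DET1 calls of mock- and MeJA-primed Criollo against Micro-Tom were lost (adjusted p = 0.060 and 0.054).

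On log2(TPM + 1) the median of all genes shifted to -0.23 for Stupicke against Criollo and 0.20 for Criollo against Micro-Tom in mock-primed seeds, and the share of called genes that were higher was 25.7% and 65.1%, against 48.1% and 47.6% in the TMM fit. It was 33.7% against 49.2%, and 35.2% against 49.0%, for MeJA-primed Stupicke against Criollo and Micro-Tom. For MeJA in Criollo it was 47.0% against 72.4%, and for the mean MeJA effect 43.0% against 56.9%. Medians for MeJA in Criollo and for MeJA-primed Stupicke against Criollo and Micro-Tom were -0.12, -0.10 and -0.11. No fit with only the libraries compared was made for the mean effect.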

Other observations

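With 3 seed pools per group, transcript levels in re-dried, dark-primed seeds do not show protein, phytochrome form or activity. Embryo and endosperm were not separated. Counting error is small for PHYA, with 6619 or more counts in every library, and larger for HY5 and PHYB2 in Micro-Tom, with as few as 101 and 116 counts.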
